A study of Mus musculus with 8 samples.

Results

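The miRNAs described here are mmu-miR-451a, both arms of miR-144 (mmu-miR-144-3p and mmu-miR-144-5p) and mmu-miR-486a-5p, which are best known from red blood cells. They were taken by name from the mouse miRNA probes of the array, and all 4 were present among the 1881 mouse miRNAs measured, each with 2 probes. Kidney tissue came from male C57BL/6 mice aged 8 weeks, taken 7 days after unilateral ureteral obstruction (UUO, tying off the ureter of 1 kidney, an injury followed by inflammation and fibrosis) or after sham surgery as the control. Each group had 4 samples with 1 array each, named Sham 1, 2, 3 and 8 and UUO 1, 2, 3 and 4 in the labels. The labels do not state that each sample came from a different mouse, so the p-values below measure the spread between these samples. The kidney of the mouse that was taken, and whether blood was flushed out of it, are not given in the sources used here.

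miRNAs are short RNAs that guide Argonaute proteins to matching sites in messenger RNAs and lower their output. The miR-144 and miR-451a hairpins lie side by side and are made from 1 primary transcript, which the erythroid transcription factor GATA1 switches on as red cells mature. miR-451a is the classic miRNA that bypasses Dicer: its hairpin is too short for that enzyme and is cut by Argonaute 2 itself. miR-144-3p is known to repress Nfe2l2, the gene of the antioxidant regulator NRF2, and miR-451a to repress Ywhaz, the gene of a 14-3-3 protein. miR-486a comes from an intron of Ank1, the gene of the red cell membrane protein ankyrin, and is also made in striated muscle. Mature red cells have lost their nucleus but keep these miRNAs in large amounts, so in a piece of tissue they can be carried by blood.

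The mature sequences show which RNAs the probes were built to catch. RefSeq held 3 of the 4 (build GRCm38.p6, plus strand of chromosome 11), at chr11:78073186-78073207 for miR-451a, chr11:78073047-78073066 for miR-144-3p and chr11:78073010-78073032 for miR-144-5p. They are written 5′ to 3′ with the seed, bases 2 to 8, in capitals.
miR-451a: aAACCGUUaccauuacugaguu
miR-144-3p: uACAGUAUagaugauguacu
miR-144-5p: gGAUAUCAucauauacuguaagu
The 3 seeds differ from each other, and none of the other mature mouse miRNAs in the table of 1679 had the same bases 2 to 8 as any of them. miR-101a-3p was the 1 other miRNA with the bases 2 to 7 of miR-144-3p.

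The hairpin of miR-451a shows how its mature form (capitals) runs from base 17 to base 38 of 72, along the stem and into the loop. In the hairpin of miR-144, of 66 bases, the 3p arm (capitals) occupies bases 43 to 62 and the 5p arm bases 6 to 28.
miR-451a hairpin: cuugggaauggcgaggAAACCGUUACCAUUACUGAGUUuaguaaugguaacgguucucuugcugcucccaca
miR-144 hairpin: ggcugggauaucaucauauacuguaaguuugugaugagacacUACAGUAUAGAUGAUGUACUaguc
The hairpins are 99 bases apart. In the RefSeq gene table Flot2 is listed before Mir144 and Eral1 after Mir451a, and the hairpin of miR-451b occupies the same bases as that of miR-451a on the opposite strand.

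The longer probe of miR-451a was the complement of the whole mature sequence, bases 1 to 22, and the shorter one of bases 2 to 22. The miR-144-3p probes covered bases 1 to 20 and 2 to 20, and those of miR-144-5p bases 1 to 23 and 2 to 23. The probes of miR-486a-5p are shown because they were much shorter and far richer in G and C.
miR-451a probe, longer: aactcagtaatggtaacggttt
miR-486a-5p probe, longer: ctcggggcagctca
miR-486a-5p probe, shorter: ctcggggcagctc
The miR-486a-5p probes had 14 and 13 bases with a GC content of 71.4% and 76.9%, against 36.4% for the longer miR-451a probe. The array's own annotation lists both miR-486a-5p probes also for miR-3107-5p, the older name of miR-486b-5p, so their signal cannot be assigned to 1 of the 2 copies. In the RefSeq gene table Mir486 lies inside Ank1 and Mir3107 inside Mir486.

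Signals are given first as processed intensity, the scanner brightness of a spot after background subtraction, on a linear scale. The probes of these 4 miRNAs had 10 to 15 usable spots per array after outlier spots were left out. The arrays were then scaled to a common 75th percentile (394 to 482 before scaling), raised to a floor and expressed as log2. The floor was the dimmest detected signal of Sham 2, the array where that signal was highest. It was log2 −4.89, an intensity of 13.3 to 16.3 depending on the array. On the other arrays detected signals could lie below the floor, down to −5.28 on UUO 3. Detection of a probe required over 50% of its spots on that array to stand well above background, which 720 to 800 probes per array did. All arrays were on 1 slide, with Sham in row 1 and UUO in row 2, so slide row and surgery cannot be told apart.

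mmu-miR-451a, the Dicer-independent miRNA, was detected on all 8 arrays and was lower in UUO. Its longer probe read 1786, 1722, 2062 and 1430 on Sham 1, 2, 3 and 8. On UUO 1, 2, 3 and 4 it read 1015, 1555, 1019 and 954. UUO 1, 3 and 4 were close together and below every Sham array, whereas UUO 2 lay above Sham 8, so the groups overlapped. On the log2 scaled signal the Sham mean was 2.10 ± 0.23 (SD, n = 4) and the UUO mean 1.26 ± 0.39 (SD, n = 4), a 1.78-fold lower level (log2 difference −0.84 ± 0.20 SE, limma, adjusted p = 0.00592).

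The spots of 1 array varied less than the arrays did. For the longer miR-451a probe the coefficient of variation between spots was 1.59 to 3.36%, against 14.8% between the Sham arrays and 24.7% between the UUO arrays. The shorter probe gave a log2 difference of −0.82, and its UUO 2 signal of 1126 was likewise above the 1030 of Sham 8. The software's total signal for miR-451a, which sums its probes and carries an error estimate, was 777 ± 55.7 on UUO 2 against 504 ± 36.1, 508 ± 36.3 and 476 ± 34.1 on UUO 1, 3 and 4. The UUO 2 intensity was 1.56 times the mean of the other 3 UUO arrays, and the highest Sham array, Sham 3, was 1.44 times the lowest, Sham 8.

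mmu-miR-144-3p, from the same primary transcript, was detected on all 8 arrays and was lower in UUO, and within each group its arrays stood in the same order as for miR-451a. Its longer probe read 100.3, 96.2, 126 and 84.4 on Sham 1, 2, 3 and 8. On UUO 1, 2, 3 and 4 it read 60.0, 98.5, 60.9 and 51.4. Again UUO 2 lay among the Sham arrays and the other 3 UUO arrays below all of them. Sham averaged −2.01 ± 0.25 (SD, n = 4) and UUO −2.82 ± 0.47 (SD, n = 4) on the log2 scaled signal, a 1.76-fold lower level (−0.81 ± 0.23 SE, limma, adjusted p = 0.0147). Its shorter probe, with 48.1 to 116 over the 8 arrays, gave a difference of −0.86.

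**Figure D1:**
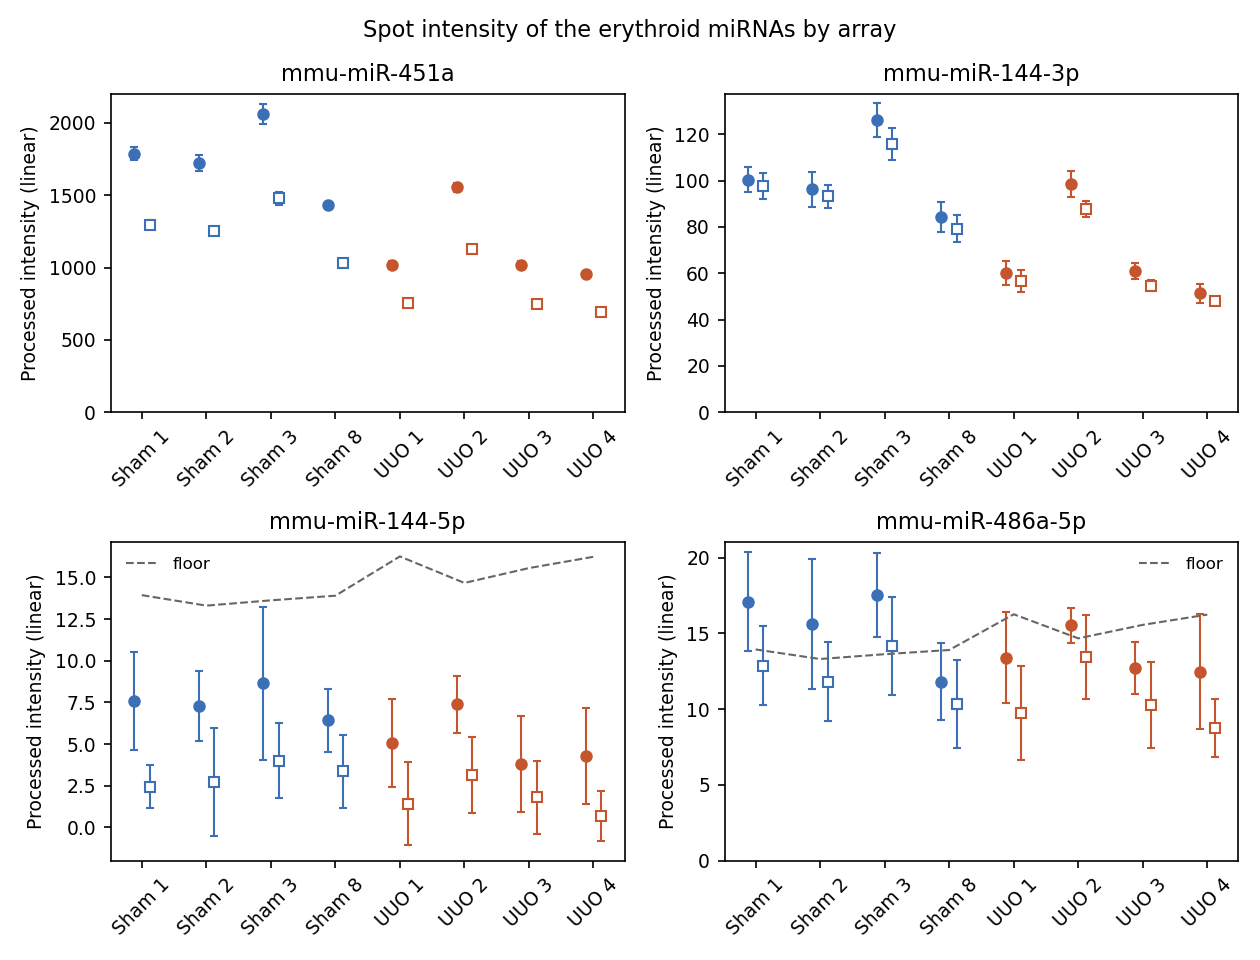
Processed intensity (linear) of the 4 miRNAs on each array, with Sham in blue and UUO in orange; filled circles are the brighter probe and open squares the other probe, and bars are the SD over the spots of that array. The dashed line is the floor on each array: miR-451a and miR-144-3p show the same rise on UUO 2 and Sham 3, the brighter miR-486a-5p probe lies above the floor on 4 of 8 arrays and miR-144-5p below it on all.

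mmu-miR-144-5p, the other arm of the miR-144 hairpin, was not detected by the rule on any array and so entered no limma test. It was part of the 10 pairs compared by permutation below, where its floored value was constant and the pair showed only the other miRNA. Its brighter probe read 7.59, 7.28, 8.64 and 6.42 on Sham 1, 2, 3 and 8 and 5.06, 7.38, 3.80 and 4.29 on UUO 1, 2, 3 and 4, all below the floor. Well above background were 2 of its 15 spots on Sham 3 and none on the other arrays. The software's own call, which pools the spots, found it on Sham 3 with a total signal of 2.44 ± 0.775 and set it to 0.1 on the other 7 arrays. Its other probe read between 0.671 and 4.00. Sham 3 and UUO 2 were again the highest arrays of their groups on the brighter probe, whose spots varied by an SD of 1.72 to 4.58 within an array.

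mmu-miR-486a-5p was close to the limit of detection, with 3 arrays of each group detected by the rule. The software's own call, which pools the spots, found it on all 8 arrays. Its total signal ran from 6.14 ± 1.20 on UUO 4 to 8.95 ± 1.21 on Sham 3. Its longer probe read 17.1, 15.6, 17.5 and 11.8 on Sham 1, 2, 3 and 8. On UUO 1, 2, 3 and 4 it read 13.4, 15.5, 12.7 and 12.5. Sham 8 was the lowest array of all before scaling and UUO 2 the highest of the UUO arrays, so the groups overlapped. After scaling, Sham 8 and UUO 1, 3 and 4 were at the floor, which hides differences among them and shortens the distance between the groups. The floored difference was −0.20 ± 0.08 (SE, limma, adjusted p = 0.0509) and did not pass the threshold of 0.05. Without the floor, a setting chosen after seeing the data, it was −0.38 ± 0.15 (SE, limma, adjusted p = 0.0521), from −4.73 ± 0.27 (SD, n = 4) in Sham to −5.11 ± 0.21 (SD, n = 4) in UUO. Without Sham 8 the floored difference was −0.28 (limma, adjusted p = 0.00396), the only call when each of the 8 arrays was left out in turn. UUO 1, 3 and 4 shared the floor value there, which narrows the UUO spread that this p rests on. The spots of this probe varied by 7.41 to 30.4% within an array, and the shorter probe, at 8.75 to 14.2, was at the floor on 7 arrays.

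In all, 2 of the 3 tested miRNAs were called lower in UUO and 0 higher. Over all 408 miRNAs tested 27.7% were called lower and 39.7% higher by the same limma fit, 67.4% in all, so a call in either direction was common on these arrays. The split over all miRNAs moved with the scaling, from 162 higher and 113 lower in the setting used here to 239 and 62 with the arrays scaled to the control features named dmr and to 109 and 217 with the software's total signal. miR-451a and miR-144-3p were called lower in each of these 8 scaling and summary settings, from −0.55 to −1.17 for miR-451a and from −0.53 to −1.20 for miR-144-3p. The median change of all tested miRNAs ran from 0.34 with the dmr scaling to −0.23 with the total signal, so both lay below the median of their setting. When all 1881 miRNAs were tested with no filter, neither was called (limma, adjusted p = 0.0813 for miR-451a and 0.162 for miR-144-3p). miR-486a-5p was called lower with the total signal (−0.74, adjusted p = 0.00800, limma) and with the deposited ratio table (−0.70, adjusted p = 0.0159), which rests on that total.

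**Figure D2:**
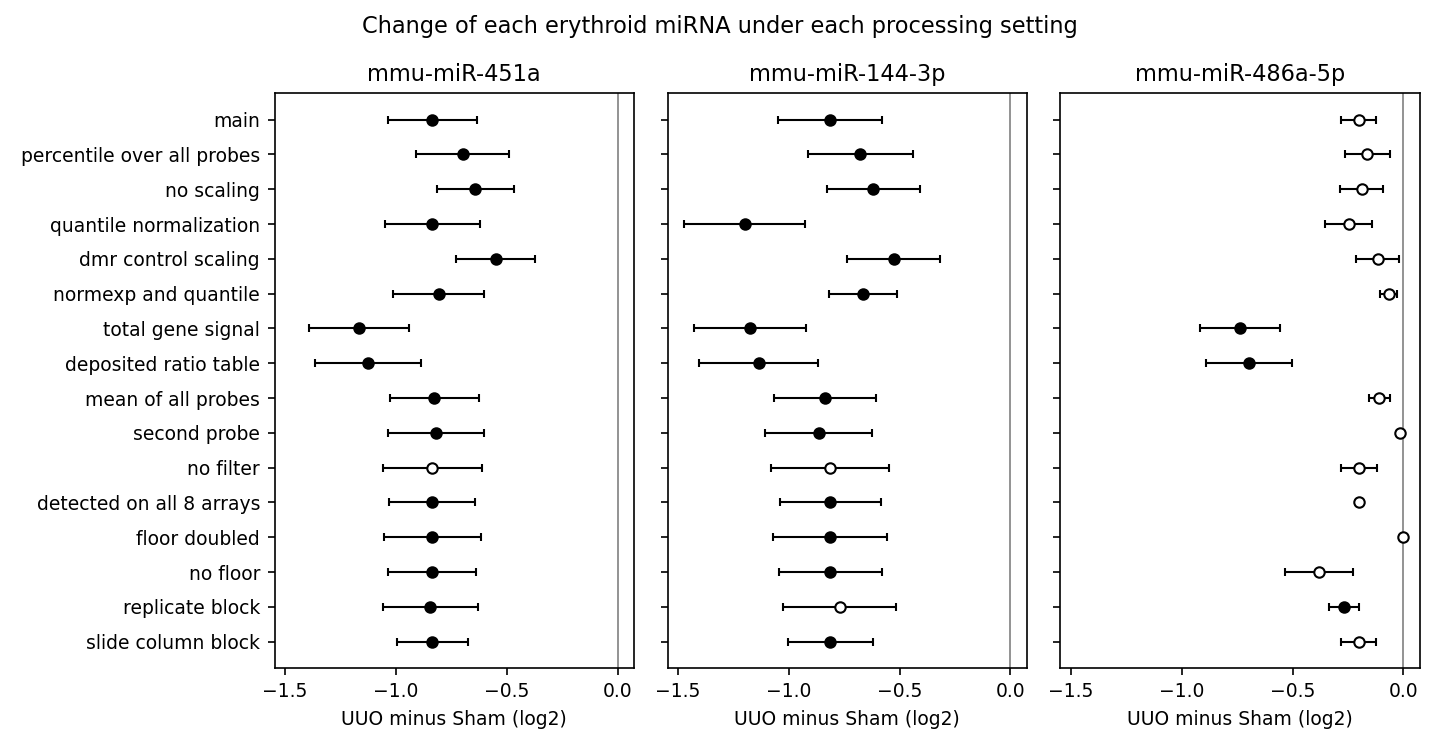
Difference between UUO and Sham (log2, x axis) of 3 miRNAs under each processing setting (y axis); points are the fitted difference, bars its SE (absent where the miRNA was not tested), and filled points passed an adjusted p under 0.05. miR-451a and miR-144-3p lie left of 0 throughout, between −0.53 and −1.20, and miR-486a-5p runs from −0.74 to 0, the last where the doubled floor lies above its signal on every array.

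Overlapping groups were not usual among called miRNAs. Sham and UUO arrays did not overlap for 61.3% of the 408 tested miRNAs, and 27 of the 275 called ones (9.82%) overlapped, miR-451a and miR-144-3p among them. Leaving out UUO 2 gave −1.03 for miR-451a (limma, adjusted p = 0.000376) and −1.04 for miR-144-3p (limma, adjusted p = 0.000784). Without it the lowest Sham array lay 0.65 above the highest UUO array for miR-451a and 0.63 for miR-144-3p on the log2 scale. The difference stayed between −0.74 and −1.03 for miR-451a and between −0.68 and −1.04 for miR-144-3p when each of the 8 arrays was left out in turn, and both were called each time.

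Over all called miRNAs UUO 2 was the UUO array nearest to the Sham mean for 42.2% of the 275 called miRNAs, against 29.8, 18.5 and 9.45% for UUO 3, 4 and 1. Among the Sham arrays Sham 1 had a like share, being nearest to the UUO mean for 43.6%, against 17.5 to 21.1% for the other Sham arrays. In scaled signal before the floor UUO 2 was the highest UUO array for 182 of the 408 tested miRNAs, and UUO 4 the lowest for 165.

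The array-to-array spread of miR-451a and miR-144-3p was large, while miR-486a-5p, not detected by the rule on every array, was not ranked. Over the 337 miRNAs detected on all 8 arrays the median within-group SD was 0.11 on the log2 scale. That of miR-144-3p was 0.38, the 13th largest, and that of miR-451a was 0.32, the 34th largest. miR-16-5p, which most cell types carry, had 0.08, the endothelial miR-126a-3p 0.07 and the myeloid miR-223-3p 0.10. Striated muscle miRNAs spread about as widely as the erythroid ones. The SD was 0.36 in Sham and 0.30 in UUO for miR-1a-3p, and 0.33 and 0.40 for miR-133b-3p. A spread of this size was thus not particular to the erythroid miRNAs.

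The highest and lowest arrays of each group were the same for the 3 tested erythroid miRNAs. In scaled signal before the floor all 3 tested erythroid miRNAs had Sham 3 as the highest and Sham 8 as the lowest Sham array, and UUO 2 as the highest and UUO 4 as the lowest UUO array. That combination was read from these 3 miRNAs after their values were seen. It held for 5 of the 408 tested miRNAs, these 3 included, so the count does not test it. The remaining ones were miR-15b-5p and miR-702-3p. For miR-486a-5p the lowest arrays, Sham 8 and UUO 4, were not detected by the rule. Its intensities of 13.4, 12.7 and 12.5 on UUO 1, 3 and 4 had spot SDs of 3.00, 1.73 and 3.79, so their order is uncertain. Sham 3 was the highest Sham array for 31 and Sham 8 the lowest for 57 of the 408.

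miR-144-3p was the miRNA whose profile lay nearest to that of miR-451a among the tested miRNAs. The root mean square distance between their centred log2 profiles over the 8 arrays was 0.07, against a median of 0.58 over all tested miRNAs. Next were miR-203-3p (0.19), miR-3968 (0.22), miR-101c (0.23) and miR-33-5p (0.23), all 4 called lower in UUO in the 8 scaling and summary settings. miR-203-3p fell by as much as miR-451a (−0.87 ± 0.09), but its Sham arrays lay closer together, between −1.16 and −1.07 on the log2 scale.

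Within an array the difference between miR-144-3p and miR-451a does not depend on a scaling factor per array. Its size mixes abundance with how bright each probe is, so only its change between arrays can be read. It was −4.15, −4.16, −4.03 and −4.08 on Sham 1, 2, 3 and 8 and −4.08, −3.98, −4.07 and −4.21 on UUO 1, 2, 3 and 4. The groups lay on top of each other, and the change of miR-451a differed from that of miR-144-3p by −0.02 (two-sided exact permutation test, p = 0.714, adjusted p = 0.714 over 10 pairs). The arrays differed by up to 0.23 in this value, while miR-451a itself ranged over 0.85 among the UUO arrays and miR-144-3p over 1.09.

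**Figure D3:**
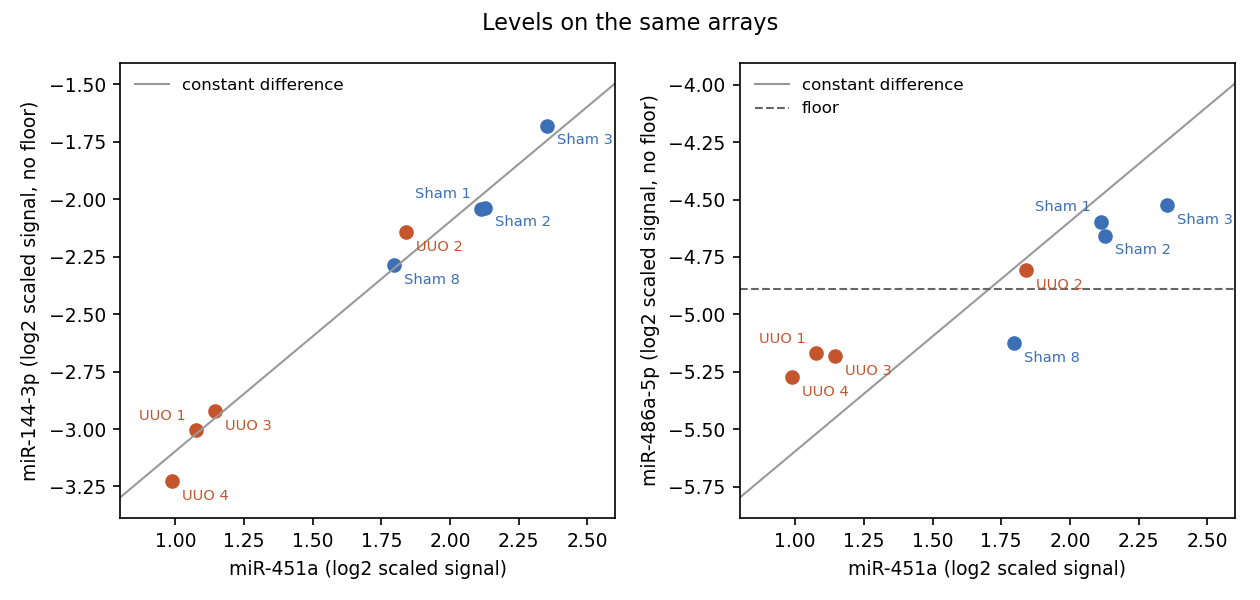
Log2 scaled signal of miR-144-3p (left) and miR-486a-5p (right, with no floor applied) against that of miR-451a on the same arrays, with Sham in blue and UUO in orange. The grey line marks a constant difference from miR-451a, to which the 8 arrays lie close for miR-144-3p, and the dashed line is the floor, above which 4 arrays lie for miR-486a-5p.

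miR-486a-5p shared with miR-451a the highest and lowest array of each group in scaled signal before the floor, but not the order of the arrays between them. Its log2 range was 0.60 over the Sham arrays and 0.47 over the UUO arrays, against 0.56 and 0.85 for miR-451a. Among the 10 pairs, the floored change of miR-451a differed from that of miR-486a-5p by −0.63 (exact permutation p = 0.0286, adjusted p = 0.0952). With no floor it differed by −0.45 (exact permutation p = 0.0286, adjusted p = 0.0952). On these values miR-486a-5p fell less than miR-451a, but the pair did not pass after adjustment. It could have passed only if most of the 10 pairs had reached the smallest possible p, so the adjusted p cannot decide. With 4 of 8 arrays below the floor and Sham 8 and UUO 4 not detected by the rule, the size of the miR-486a-5p change is uncertain. The miRNAs nearest to miR-486a-5p in floored profile were miR-32-5p (0.10), miR-3963 (0.11), miR-103-3p (0.11), miR-148b-3p (0.11) and miR-186-5p (0.11), a likeness limited by the 4 arrays at the floor.

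Other miRNAs are plentiful in red cells but made in most tissues as well, and most of those tested rose. Of 10 such miRNAs on the array 8 were tested, of which 5 rose, 2 fell and 1 was not called, with a median of 0.50 against 0.06 over all tested miRNAs. miR-16-5p, a repressor of cell cycle genes, rose (0.50 ± 0.06), as did its cluster partner miR-15b-5p (0.92 ± 0.05), miR-92a-3p (0.50 ± 0.06), miR-25-3p (0.74 ± 0.04) and miR-93-5p (0.74 ± 0.04). miR-185-5p (−0.95 ± 0.08) and miR-107-3p (−0.61 ± 0.07) fell, and miR-103-3p, which differs little from miR-107-3p in sequence, was at −0.14 ± 0.06 and changed sign between scalings. With the total signal 3 rose and 4 fell of 9 tested, and with the deposited ratios there were 4 of each. miR-191-5p was detected on 0 arrays and miR-363-3p on 1 Sham array.

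Against miR-16-5p on the same array, miR-451a went from −0.82 ± 0.23 (SD, n = 4) in Sham to −2.16 ± 0.34 (SD, n = 4) in UUO. The groups did not overlap, with −1.11 as the lowest Sham and −1.66 as the highest UUO value, and the changes differed by −1.34 (two-sided exact permutation test, p = 0.0286, adjusted p = 0.0952 over 10 pairs). The smallest p that 4 against 4 arrays allow is 0.0286. At that p a pair could pass adjustment over the 10 pairs only if most of them reached it. None of the 10 pairs passed, which therefore cannot decide about any 1 pair. Against the endothelial miR-126a-3p, taken as an index of vessel wall, the difference was −0.70 (exact permutation p = 0.0571, adjusted p = 0.0952), and UUO 2 at −1.72 lay above the lowest Sham array at −1.86. miR-126a-3p itself was at −0.14 ± 0.06 (limma, adjusted p = 0.0578) and changed sign between scalings.

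miRNAs of the other cells that blood or kidney tissue holds were set beside them. All 5 leukocyte miRNAs rose: the myeloid miR-223-3p (2.30 ± 0.07), the pan-leukocyte miR-142a-3p (2.28 ± 0.07) and miR-142a-5p (2.03 ± 0.08), the activation-linked miR-155-5p (1.48 ± 0.06) and the lymphocyte miR-150-5p (0.59 ± 0.10), with 4 of 5 called in the total signal. On the same arrays miR-451a and miR-144-3p fell, in all 8 scaling and summary settings. The endothelial miR-126a-5p was called lower at −0.22 ± 0.07 (limma, adjusted p = 0.0169). It changed sign between scalings, called lower in 5 of the 8 scaling and summary settings and higher in 0.

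Striated muscle is the other tissue in which miR-486 is known, and 0 of its 3 tested miRNAs were called here, while miR-1a-3p was called lower in 2 of the 8 scaling and summary settings. miR-1a-3p was at −0.19 ± 0.21, miR-133b-3p at 0.02 ± 0.23 and miR-133a-3p, detected on 2 arrays of each group, at 0.06 ± 0.07, while miR-206-3p was detected on 0 arrays. miR-1a-3p was highest on Sham 8 (−2.73) and Sham 1 (−2.83) and lower on Sham 2 (−3.49) and Sham 3 (−3.26). The passenger arms miR-486a-3p and miR-486b-3p were detected on 0 arrays, with intensities of at most 0.697 and 0.561.

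**Figure D4:**
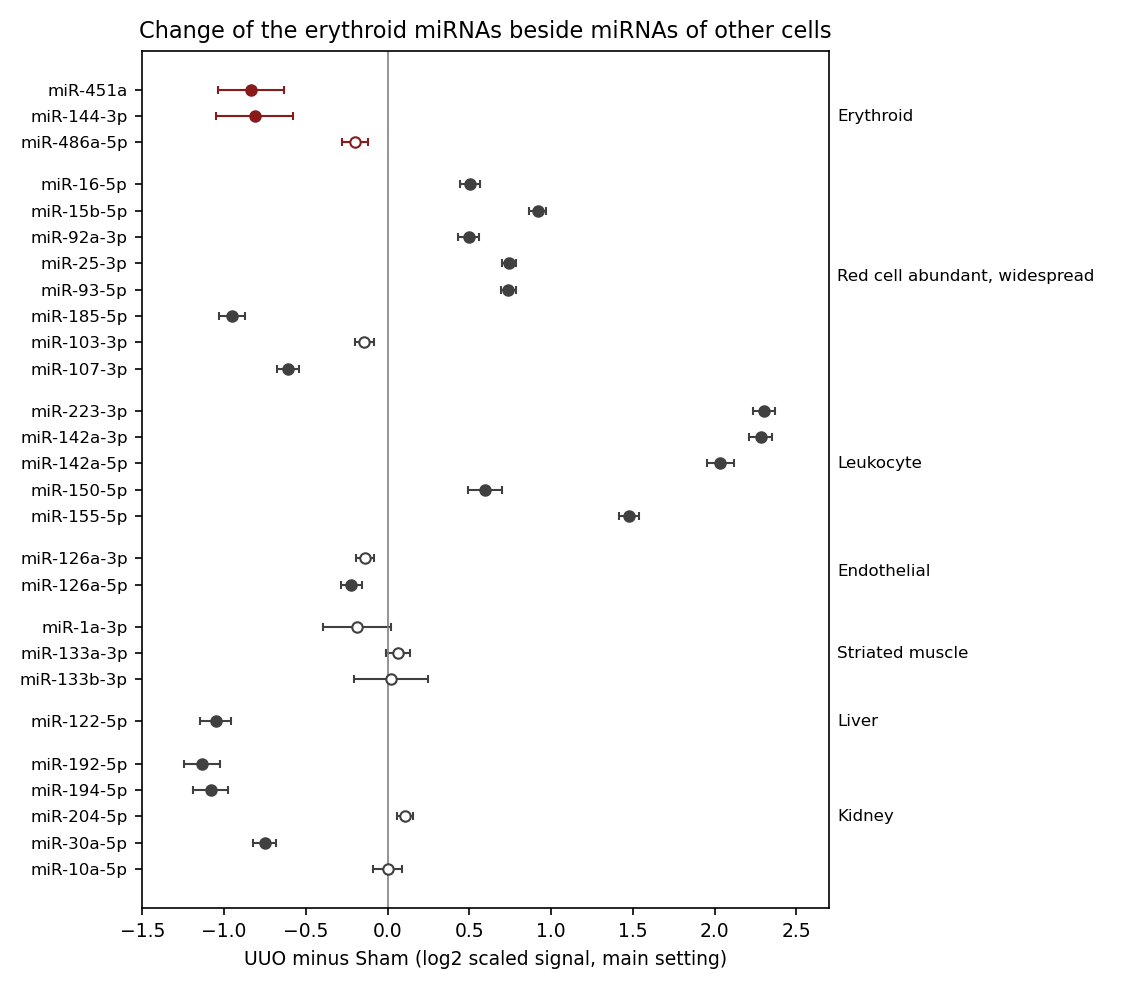
Difference between UUO and Sham (log2 scaled signal, x axis) for the tested erythroid miRNAs (dark red) and the tested miRNAs of other cell types (grey); points are the fitted difference, bars its SE, and filled points passed an adjusted p under 0.05. The leukocyte miRNAs lie between 0.59 and 2.30, miR-451a and miR-144-3p at −0.84 and −0.81.

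The kidney's own miRNAs marked the tissue. miR-30a-5p (Sham 4.17, UUO 3.42) and miR-192-5p (3.27 and 2.13), both typical of tubule epithelium, were bright in both groups and fell by 0.75 and 1.14, as did miR-194-5p by 1.08. miR-10a-5p (0.00 ± 0.09) and miR-204-5p (0.10 ± 0.05) were not called and changed sign between scalings. The liver miRNA miR-122-5p, which also circulates in plasma, was above background on all 4 Sham arrays but on 0 UUO arrays, and was called lower. In bulk tissue fewer red cells and less miRNA per red cell cannot be told apart, and what blood contributed to any of these signals was not measured.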

How the data were processed

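Total RNA was labelled with Cy3 and hybridized to 1-colour Agilent miRNA arrays, per the labels' protocols. Agilent Feature Extraction 10.7.3.1, per the submitters' processing notes, gave the deposited intensities of each spot, with a spatial background surface subtracted and no multiplicative detrending, per the file headers. They were not normalized between arrays. A second deposited table gave ratios: when set against the scanner values, they were the total signal times 1 factor per array, over the miRNA's median. The basis of that factor is unknown. Column medians ran from 1.11 to 1.28 over the Sham arrays (1.11, 1.26, 1.28, 1.11) and from 0.766 to 0.903 over the UUO arrays (0.809, 0.903, 0.867, 0.766).

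From these, control spots and outlier spots (2.64 to 2.95% per array) were left out and spots of a probe averaged. Signals were divided by the array's 75th percentile of the 623 probes that all 8 arrays detected, floored and logged. A miRNA was represented by its brightest probe and tested when detected on at least 4 arrays. limma 3.58.1 in R 4.3.3 compared 4 UUO with 4 Sham arrays, with Benjamini-Hochberg adjustment over all 408 tests at 0.05, checked on simulated data. Pairs of miRNAs were compared by exact permutation. Named were the 4 miRNAs, members of the lists of other cell types (of the widespread red cell and kidney lists, those called and the 2 brightest) and the 5 nearest profiles of miR-451a and miR-486a-5p; others were named after their values were seen, namely the list members that were not called or not detected and the miRNAs sharing an order of arrays. The miRNAs, lists and tests were chosen with earlier results of these data known. The number of arrays limits the precision. Alternatives were other scalings, background correction, filters, floors, probe summaries and blocks.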

Additional observations from a re-analysis of the deposited data

Results flagged for a closer look

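The total signal of miR-451a on UUO 2 stood apart from the other UUO arrays: its gap to the next array was 0.896 of the group's whole range, above the critical value of Dixon's outlier test for 4 samples. In the log2 scaled signal of either probe the gap was below that limit. The total signal of miR-144-5p on Sham 3, 2.44 ± 0.775, was above that of the other Sham arrays, which the software set to 0.1 (gap 1 of the range). Chance marks about 1 in 20 groups in this way.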

How the results depend on the processing

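Over the 15 settings other than leaving out an array, miR-451a was called lower in 14 and miR-144-3p in 13. With no filter neither was called (−0.84, adjusted p = 0.0813, and −0.81, adjusted p = 0.162, limma). In that setting 1881 miRNAs were tested, and the SE was 0.22 for miR-451a and 0.27 for miR-144-3p, against 0.20 and 0.23 in the main setting. Sham 8 and UUO 4 had no array of the same number in the other group. The fit with the replicate number as a block therefore rested on Sham 1, 2 and 3 and UUO 1, 2 and 3. That fit gave −0.84 for miR-451a and −0.77 for miR-144-3p, then not called (adjusted p = 0.0691, limma). For miR-486a-5p it gave −0.27, then called (limma, adjusted p = 0.0372) with no weight from Sham 8. It called 142 higher and 84 lower over all miRNAs, and the numbers were not taken to pair the samples, since deviations of same-numbered arrays correlated at −0.000808, 0.124 and −0.303. miR-486a-5p was also called with the total signal (−0.74) and the ratio table (−0.70), and was at 0 with the floor doubled. miR-144-5p, at the floor on all arrays, moved to −0.050 with normexp, −0.26 with the total signal, −1.66 in the ratio table and −0.78 without a floor, not tested by limma in any of them. Its total signal was the set value of 0.1 on every array but Sham 3, so the ratio table value reflects that array and the factor per array. miRNAs called lower numbered 62 with the dmr scaling, 217 with the total signal and 207 with the ratio table. Leaving out 1 array gave −1.03 to −0.74 for miR-451a, −1.04 to −0.68 for miR-144-3p, −0.28 to −0.15 for miR-486a-5p, called only without Sham 8, and 0 for miR-144-5p, with 147 to 171 miRNAs called higher and 106 to 117 lower. The causes were not tested. Signal over background limits what miR-486a-5p and miR-144-5p can show.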
